A study of Mus musculus with 2 samples.

Results

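Elastic fibres were examined through the 10 genes that encode their main parts: the fibrillins *Fbn1* and *Fbn2*, the microfibril-associated glycoproteins *Mfap2*, *Mfap4* and *Mfap5*, elastin (*Eln*), the fibulins *Fbln1* and *Fbln5*, and the crosslinking enzymes *Lox* and *Loxl1*. The genes were chosen by name for their place in the fibre, and they are 10 of the 23977 genes listed in Batch 1 and of the 25721 listed in Batch 2. Whole lungs of 2 wild-type female C57BL/6J mice at postnatal day 1 were dissociated with enzymes, strained, and captured cell by cell in droplets, with 1 mouse in each batch and no other condition. Barcoded beads marked every transcript by cell and by a random tag, the unique molecular identifier (UMI), so that a count is the number of different molecules of a gene read in a cell. Cells were kept where mitochondrial genes held at most 10% of their UMIs. A level below is the number of UMIs of a gene per 10000 UMIs summed over the cells of a class in 1 batch, and detection is the percentage of cells that hold 1 UMI of it or more. Intervals and limits given with them cover counting error only. Reads came from the 3′ ends of transcripts, so levels are compared between classes of cells and genes are not ranked against each other. Where levels of different genes are set side by side or summed, they were not adjusted for how well each gene is captured.

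An elastic fibre is a core of crosslinked elastin laid down on a scaffold of fibrillin microfibrils. Mesenchymal cells secrete the fibrillins and soluble elastin, fibulins bring elastin to the microfibrils, and lysyl oxidases join the elastin chains into a polymer that recoils after stretch. In the newborn lung the fibres form in the walls of arteries and airways, in the pleura, and at the tips of the septa that divide the air sacs, where myofibroblasts are known as a main source of elastin.

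Start sites of 4 of the 10 genes were found in the RefSeq table of mouse promoters (GRCm38.p6), and the 250 bases before each are shown 5′ to 3′ on the strand of the gene, since their owners lead in 3 different kinds of cell below. Capitals mark matches, on either strand, to 5 motifs that were searched, whose matches here do not overlap: the GC box GGGCGG, the TATA box TATAAA, the E-box CACGTG, the AP-1 motif TGANTCA and the TEAD motif GGAATG. The *Fbn1* stretch, chr2:125506439-125506688 on the minus strand, held 1 GC box, the *Fbln1* stretch, chr15:85205699-85205948 on the plus strand, held 1 E-box, the *Fbln5* stretch, chr12:101819120-101819369 on the minus strand, held 2 GC boxes, and the *Mfap2* stretch, chr4:141010174-141010423 on the plus strand, held 1 TEAD motif.
Fbn1: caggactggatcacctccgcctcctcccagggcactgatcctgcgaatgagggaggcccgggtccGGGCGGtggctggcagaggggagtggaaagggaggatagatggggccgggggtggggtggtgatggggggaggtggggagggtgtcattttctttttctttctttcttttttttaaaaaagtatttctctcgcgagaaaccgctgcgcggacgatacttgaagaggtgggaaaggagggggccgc
Fbln1: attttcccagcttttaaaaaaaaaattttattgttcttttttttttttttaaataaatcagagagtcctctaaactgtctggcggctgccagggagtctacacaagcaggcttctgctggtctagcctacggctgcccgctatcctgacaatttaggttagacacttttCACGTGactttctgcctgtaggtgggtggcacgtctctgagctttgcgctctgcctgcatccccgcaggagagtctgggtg
Fbln5: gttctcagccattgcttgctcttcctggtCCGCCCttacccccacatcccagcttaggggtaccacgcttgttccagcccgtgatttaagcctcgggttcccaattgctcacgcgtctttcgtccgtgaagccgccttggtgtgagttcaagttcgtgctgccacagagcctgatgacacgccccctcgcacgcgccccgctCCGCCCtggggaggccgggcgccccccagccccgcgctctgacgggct
Mfap2: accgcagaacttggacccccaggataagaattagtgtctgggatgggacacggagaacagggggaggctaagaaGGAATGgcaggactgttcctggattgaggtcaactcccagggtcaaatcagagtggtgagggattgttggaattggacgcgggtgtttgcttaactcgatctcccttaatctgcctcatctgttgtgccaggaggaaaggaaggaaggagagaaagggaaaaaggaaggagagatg
Of all 32851 promoters of the table, 32.7% held the GC box, 12.4% the TATA box, 6.02% the E-box, 6.75% the AP-1 motif and 12.6% the TEAD motif within the same length. A match is a description of these letters and not a binding site. No motif was found in all 4 stretches.

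The genes lie on 9 chromosomes in GRCm38 (GENCODE annotation). *Eln* lies at chr5:134702593-134747323 on the minus strand, *Fbn1* at chr2:125300594-125507993 (minus), *Fbn2* at chr18:58008623-58210487 (minus), *Fbln1* at chr15:85205949-85286535 (plus), and *Fbln5* at chr12:101746565-101819055 (minus). *Lox* lies at chr18:52516067-52529867 (minus), *Loxl1* at chr9:58287738-58313186 (minus), *Mfap2* at chr4:141010418-141015984 (plus), *Mfap4* at chr11:61485431-61488900 (plus), and *Mfap5* at chr6:122505845-122529290 (plus). Counts cover the exons of each gene.

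After filtering, 2388 cells with 4432553 UMIs (median 1386.5 a cell) remained in Batch 1 and 5615 cells with 18232639 UMIs (median 2014) in Batch 2, and no cell barcode was shared. Cells were clustered without the 10 genes and without 27 genes of their assembly and crosslinking partners and 10 genes of matrix turnover, and clusters were named from marker genes. MatrixFB-1-like cells (879 in Batch 1 and 1209 in Batch 2) carried *Tcf21*, *Inmt* and *Fgf10*, MatrixFB-2-like cells (70 and 99) *Dpt* and *Col14a1*, and MyoFB-like cells (149 and 386) *Tgfbi*. *Pdgfra* was among the markers of 4 of the 6 MyoFB-like clusters, and the other 2, of 136 and 82 cells, carried *Wnt5a* and *Actg2* and matched the Smooth-muscle-like markers best. Smooth-muscle-like cells numbered 12 and 25, and the paper places cells of its smooth muscle type along airways. The mural classes were Pericyte-1-like cells (10 and 76), which carried contractile markers, and Pericyte-2-like cells (64 and 161). Endothelium divided into capillary-like (440 and 1146), arterial-like (34 and 117) and lymphatic-like cells (18 and 27), and mesothelial-like cells, of the lining of the lung, numbered 19 and 13. The authors' cell list assigns 1867 of these Batch 1 cells to a comparable type, of which 112 stayed unnamed here. The class of that name held 89.4% of the 1867 and 95.1% of the 1755 that were named, but only 6 of the 36 cells listed as smooth muscle were in the Smooth-muscle-like class and 28 were in the MyoFB-like class, and 18 of 18 listed mesothelial-like cells carry the label MatrixFB-2 in the list. Macrophage-like and lymphocyte-like cells served as the background, since they are not known to make elastic fibres.

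**Figure D1:**
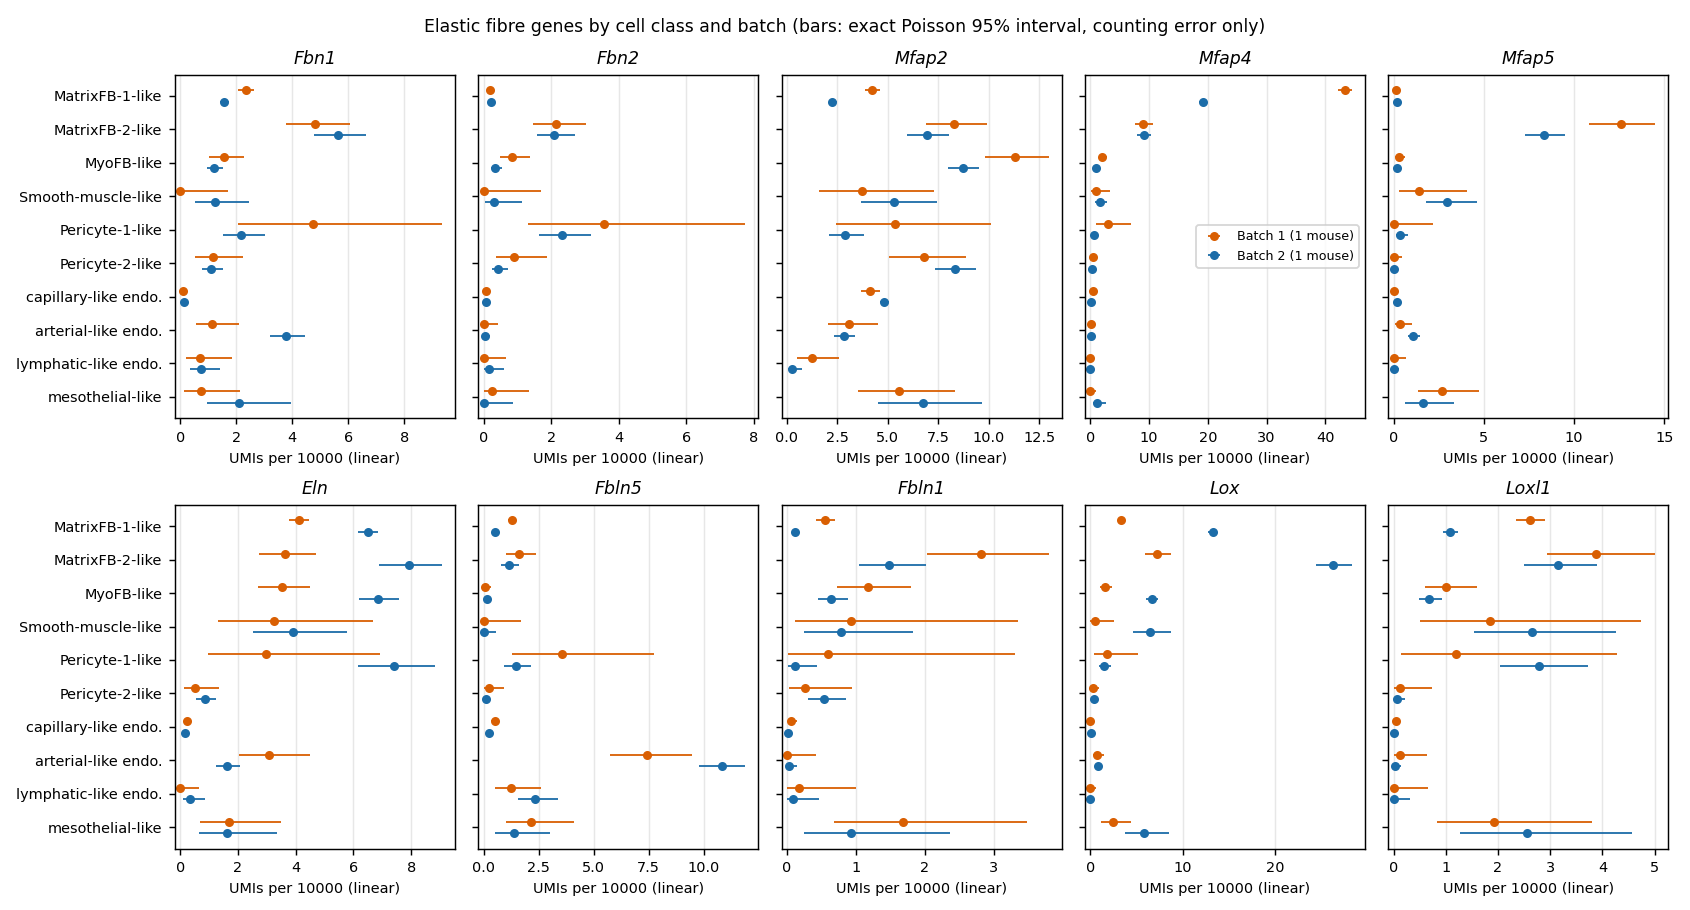
Levels of the 10 elastic fibre genes (horizontal axis, UMIs per 10000, a separate scale for each gene) in 10 classes of cells (vertical axis). Batch 1 is drawn above Batch 2 in each class, with bars for exact Poisson 95% intervals, which cover counting error only. *Mfap4* stands highest in MatrixFB-1-like cells (43.4 and 19.2), *Mfap5* in MatrixFB-2-like cells (12.6 and 8.34), *Fbln5* in arterial-like endothelium (7.44 and 10.8) and *Mfap2* in MyoFB-like cells (11.3 and 8.72).

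The fibres' genes did not share 1 order of cell classes. Ranked by the mean of the 2 batches over the 10 classes, 6 genes were highest in MatrixFB-2-like cells (*Eln*, *Fbn1*, *Fbln1*, *Lox*, *Loxl1* and *Mfap5*), and 1 each in MatrixFB-1-like cells (*Mfap4*), MyoFB-like cells (*Mfap2*), Pericyte-1-like cells (*Fbn2*) and arterial-like endothelium (*Fbln5*). The highest class was the same in both batches for 9 of the 10, and the exception was *Eln*. Within these orders, 57 of the 90 pairs of neighbouring classes had batch values that overlapped, so most neighbours cannot be ranked with 2 mice. The plot of levels by class shows both batches for each gene.

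*Fbn1* encodes fibrillin-1, the backbone of the microfibril. Its level was 4.82 in Batch 1 and 5.65 in Batch 2 in MatrixFB-2-like cells, against 2.33 and 1.57 in MatrixFB-1-like cells and 1.57 and 1.21 in MyoFB-like cells. The MatrixFB-2-like values lay above those of every other class, though the Pericyte-1-like value of Batch 1 came close (4.74, from 8 UMIs, interval 2.05 to 9.34, and 2.18 in Batch 2). Among endothelial classes the arterial-like values were 1.14 and 3.78, the lymphatic-like values 0.719 and 0.748, and the capillary-like values 0.101 and 0.145. No arterial-like or lymphatic-like value overlapped the capillary-like ones, and *Fbn1* was higher than in capillary-like endothelium by a log2 fold change of 4.27 (SE 0.53, edgeR adjusted p = 4.00e-07) in arterial-like and of 2.33 (SE 0.75, edgeR adjusted p = 0.0412) in lymphatic-like endothelium. The lymphatic-like call rests on 4 and 9 UMIs and was lost without the batch term, without the filter on low counts and without called doublets, where edgeR's adjusted p was 0.0947, 0.0621 and 0.0607. The difference between both fibroblast classes, a log2 fold change of 1.35 (SE 0.44), did not pass (edgeR adjusted p = 0.0752).

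*Fbn2* encodes fibrillin-2, the fibrillin most tied to developing tissue. Its highest levels were in Pericyte-1-like cells, 3.56 in Batch 1, from 6 UMIs in 10 cells, and 2.31 in Batch 2, and in MatrixFB-2-like cells, 2.14 and 2.08. MatrixFB-1-like cells, the most numerous fibroblasts, had only 0.174 and 0.224, and *Fbn2* was higher in MatrixFB-2-like than in MatrixFB-1-like cells by a log2 fold change of 3.29 (SE 0.45, edgeR adjusted p = 2.96e-06). Detection gave the same order, with 21.4% and 39.4% of MatrixFB-2-like cells against 2.05% and 3.64% of MatrixFB-1-like cells, and 14.3% and 14.1% against 1.02% and 0.910% once each cell was thinned to 600 UMIs. In macrophage-like cells detection of *Fbn2* was 0% and 0.285%. MyoFB-like cells (0.839 and 0.345) and Pericyte-2-like cells (0.911 and 0.437) lay between. Pericyte-1-like cells exceeded Pericyte-2-like cells by a log2 fold change of 2.08 (SE 0.57, edgeR adjusted p = 0.0286), a call that was lost without the batch term (edgeR adjusted p = 0.136), without the filter on low counts (0.0532) and at a mitochondrial limit of 5% (0.332).

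*Mfap2* encodes a small glycoprotein that binds fibrillin along the microfibril. The level in MyoFB-like cells was 11.3 in Batch 1 and 8.72 in Batch 2, followed by MatrixFB-2-like cells (8.29 and 6.94), Pericyte-2-like cells (6.77 and 8.30) and mesothelial-like cells (5.55 and 6.72). MatrixFB-1-like cells had 4.22 and 2.25. The MyoFB-like values did not overlap those of MatrixFB-1-like cells, and the log2 fold change between these classes was 1.41 (SE 0.39, edgeR adjusted p = 0.0109, and 0.136 without the batch term). In capillary-like endothelium, where the other 9 genes were at 0.494 or less, *Mfap2* stood at 4.11 and 4.82, and 44.5% and 56.5% of cells had at least 1 UMI (Wilson intervals 40.0% to 49.2% and 53.6% to 59.3%). At 600 UMIs a cell these shares were 20.7% and 23.8%, against 0% and 1.99% in macrophage-like cells, whose unthinned shares were 3.25% and 3.99% at median depths of 1360 and 1793 UMIs, close to the 1246.5 and 1965.5 of the capillary-like cells. Lymphatic-like endothelium had far less *Mfap2*, 1.26 and 0.249, a fall from the capillary-like level by 3.02 on the log2 scale (SE 0.56, edgeR adjusted p = 0.000169). Capillary-like cells, 440 and 1146 in number, held 21.8% of all *Mfap2* UMIs in Batch 1 and 44.5% in Batch 2. Such a share combines the level with the number and depth of the cells.

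*Mfap4* encodes a microfibril-associated protein of the fibrinogen-related family that binds elastic fibres and collagen. Its level was 43.4 in Batch 1 and 19.2 in Batch 2 in MatrixFB-1-like cells, 9.03 and 9.13 in MatrixFB-2-like cells, and at most 2.96 in any other class ranked. The class of MatrixFB-1-like cells held 88.1% and 85.9% of all *Mfap4* UMIs, and 96.9% and 88.6% of its cells had at least 1 (87.6% and 63.4% at 600 UMIs a cell). The values fell far apart, and *Mfap4* was lower than in MatrixFB-1-like cells by log2 fold changes of -4.62 (SE 0.55, edgeR adjusted p = 3.72e-08) in MyoFB-like cells, -7.05 (SE 0.61, edgeR adjusted p = 4.11e-12) in capillary-like endothelium and -6.01 (SE 0.75, edgeR adjusted p = 1.31e-07) in mesothelial-like cells. The step to MatrixFB-2-like cells, -1.61 (SE 0.48, edgeR adjusted p = 0.0420), was lost under 4 of the alternatives, among them DESeq2 (adjusted p = 0.408) and the fit without the batch term (adjusted p = 0.463). The background of *Mfap4* was 1.11 and 0.272 in macrophage-like cells, detected in 9.76% and 3.99% of them, and 2.77 and 0.182 in lymphocyte-like cells. The capillary-like values, 0.418 and 0.151, lie below the macrophage-like ones and are not read as expression, and the MyoFB-like value of Batch 1 (2.01, and 0.948 in Batch 2) lies below the lymphocyte-like one.

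*Mfap5* encodes the other microfibril-associated glycoprotein that binds fibrillin. MatrixFB-2-like cells had 12.6 and 8.34, and detection there was 67.1% and 64.6%, or 42.9% and 33.3% at 600 UMIs a cell. In MatrixFB-1-like cells the level was 0.111 and 0.161, which gave a log2 fold change of 6.22 (SE 0.55, edgeR adjusted p = 4.65e-10) between both classes. *Mfap5* is among the genes by which the study marked its MatrixFB-2 cells, so its height there is no independent finding. Outside that class it was found in Smooth-muscle-like cells (1.39 and 2.97), in mesothelial-like cells (2.65 and 1.62) and in arterial-like endothelium (0.343 and 1.07), while lymphatic-like and Pericyte-2-like cells had no UMI in either batch. It was also found in an unnamed endothelial cluster, described under the other observations, at 1.48 and 3.37 (12 and 112 UMIs), above the arterial-like values. It was higher in Smooth-muscle-like than in MyoFB-like cells (0.280 and 0.172) by a log2 fold change of 3.31 (SE 0.75, edgeR adjusted p = 0.0274), in mesothelial-like than in MatrixFB-1-like cells by 3.59 (SE 0.71, edgeR adjusted p = 0.000358), and in arterial-like than in capillary-like endothelium (0 and 0.171) by 2.77 (SE 0.58, edgeR adjusted p = 0.00352). The first and the last of these calls were lost without the batch term (edgeR adjusted p = 0.286 and 0.0919) and at a mitochondrial limit of 5% (0.0824 and 0.371), the first also without called doublets (0.0558), and the last also with DESeq2 (adjusted p = 0.138). Pericyte-1-like cells held 6 *Mfap5* UMIs, all in Batch 2, against none in Pericyte-2-like cells. Their level was 4.37 times a floor of 3 counts over both batches in Pericyte-2-like cells. That ratio leaves out the counting error of the 6 UMIs and is not a lower bound. The fitted difference did not pass (edgeR adjusted p = 0.132).

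*Eln* encodes tropoelastin, the soluble building block of the core. Its 4 highest levels were close to each other: 3.61 in Batch 1 and 7.92 in Batch 2 in MatrixFB-2-like cells, 4.10 and 6.49 in MatrixFB-1-like cells, 3.52 and 6.86 in MyoFB-like cells, and 2.96 and 7.40 in Pericyte-1-like cells. All 4 ranges overlapped, and each class was higher in Batch 2. The log2 fold change against MatrixFB-1-like cells was 0.03 (SE 0.45) in MatrixFB-2-like and -0.27 (SE 0.45) in MyoFB-like cells, and neither passed (edgeR adjusted p = 0.985 and 0.846). Detection in MyoFB-like cells was 31.5% and 56.5%, and 16.1% and 32.6% at 600 UMIs a cell, against 21.3% and 28.9% of thinned MatrixFB-1-like cells. MatrixFB-1-like cells held 66.4% and 56.4% of all *Eln* UMIs, and MyoFB-like cells 8.09% and 15.5%. Such a share combines the level with the number and depth of the cells. Background in macrophage-like cells was 0.0485 and 0.109, with 0.813% and 1.99% of cells.

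*Eln* also differed between the pericyte classes and between the endothelial classes. Pericyte-2-like cells had 0.520 and 0.843, and Pericyte-1-like cells were higher by a log2 fold change of 2.92 (SE 0.60, edgeR adjusted p = 0.00172). In Batch 1 that difference rests on 5 against 4 UMIs. Most *Eln* UMIs of the Pericyte-2-like class lay in a cluster of 9 and 15 cells, described under the other observations. Smooth-muscle-like cells had 3.24 and 3.91, with intervals of 1.30 to 6.68 and 2.53 to 5.77, and did not differ from MyoFB-like cells past the threshold (log2 fold change -0.80, SE 0.55, edgeR adjusted p = 0.668). The MyoFB-like class itself holds 28 of the 36 cells listed as smooth muscle. In endothelium the arterial-like values were 3.09 and 1.61 and the capillary-like values 0.240 and 0.153, with no overlap and a log2 fold change of 3.45 (SE 0.57, edgeR adjusted p = 0.000104). Markers of contractile and fibroblast cells were measured in the same arterial-like sums: the 7 Smooth-muscle-like markers together stood at 0.572 and 0.383, with *Cnn1* at 0 in both batches, below the 0.899 and 2.78 of capillary-like endothelium, and the 8 MatrixFB-1-like markers stood at 2.40 and 3.53 against 2.01 and 1.54, with *Fgf10* at 0. The 10 MatrixFB-2-like markers stood at 3.32 and 5.65 in arterial-like against 0.620 and 0.554 in capillary-like endothelium, with 5 and 8 of the 10 found, and their part in the arterial-like levels was not tested. Mesothelial-like cells had 1.69 and 1.62, lower than MatrixFB-1-like cells by a log2 fold change of -2.03 (SE 0.61, edgeR adjusted p = 0.0227), a call lost without the batch term, with RLE scaling, at a mitochondrial limit of 5% and with DESeq2 (adjusted p = 0.0955, 0.139, 0.0750 and 0.278).

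*Fbln5* encodes fibulin-5, which binds both tropoelastin and lysyl oxidase-like enzymes and is needed for elastin to reach the microfibril. It was the 1 gene of the 10 that was highest in an endothelial class among the classes ranked. An unnamed endothelial cluster, described under the other observations, had *Fbln5* above the arterial-like level in Batch 1 and below it in Batch 2. Arterial-like endothelium had 7.44 in Batch 1 and 10.8 in Batch 2, lymphatic-like 1.26 and 2.33, and capillary-like 0.494 and 0.256. None of these ranges overlapped, and against capillary-like endothelium the log2 fold change was 4.66 (SE 0.48, edgeR adjusted p = 6.28e-09) in arterial-like and 2.34 (SE 0.53, edgeR adjusted p = 0.00215) in lymphatic-like cells. *Fbln5* was found in 38.2% and 70.1% of arterial-like cells (Wilson intervals 23.9% to 55.0% and 61.3% to 77.6%), and in 23.5% and 47.0% at 600 UMIs a cell, against 2.95% and 1.83% of thinned capillary-like cells. By the authors' cell list, which covers part of Batch 1 and holds capillary and arterial cells in 1 vascular type, the log2 difference of lymphatic from vascular cells was -0.73 in that 1 library, with no test.

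Among mesenchymal classes *Fbln5* was near background in MyoFB-like and Smooth-muscle-like cells, both of which held *Eln*. MyoFB-like cells held 1 UMI in Batch 1 and 8 in Batch 2, a level of 0.0559 and 0.138, within the background of macrophage-like cells by their intervals (0.0485, interval 0.0012 to 0.270, and 0.0543, interval 0.0148 to 0.139). Smooth-muscle-like cells held none, which allows up to 0.351 per 10000 over both batches. MatrixFB-1-like cells had 1.28 and 0.497, and MyoFB-like cells were lower by a log2 fold change of -3.02 (SE 0.62, edgeR adjusted p = 0.000495). Pericyte-1-like cells had 3.56 and 1.46 against 0.260 and 0.0936 in Pericyte-2-like cells, a log2 fold change of 3.69 (SE 0.79, edgeR adjusted p = 0.00319, lost at a mitochondrial limit of 5%, where it was 0.357). Outside the mesenchyme and the vessels, AT1-like cells, the flat cells of the gas-exchange surface, had 3.96 and 3.55, found in 53.8% and 47.3% of cells and in 22.1% and 21.8% at 600 UMIs. Both AT1-like values exceeded those of every fibroblast class, while *Eln* in AT1-like cells was 0.147 and 0.0281. Of the 104 AT1-like cells of Batch 1, the authors' list gives 63 as AT1 and 22 as endothelial and epithelial contaminants, and *Fbln5* was 5.02 in the 63 and 3.02 in the 22. In the AT1-like sums the 8 capillary-like markers together stood at 18.5 and 2.02 and the 8 arterial-like markers at 3.70 and 0.590, with *Gja5* and *Bmx* at 0, and their part in the *Fbln5* level was not tested. No test of AT1-like cells was planned, so these levels are a description.

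*Fbln1* encodes fibulin-1, a glycoprotein found within the elastin core and in basement membranes. Its level was 2.81 and 1.48 in MatrixFB-2-like cells, 1.69 and 0.926 in mesothelial-like cells, 1.17 and 0.638 in MyoFB-like cells, and 0.547 and 0.112 in MatrixFB-1-like cells. In all 4 it was higher in Batch 1. The log2 fold change against MatrixFB-1-like cells was 2.83 (SE 0.49, edgeR adjusted p = 0.000124, and 0.0557 without the batch term) in MatrixFB-2-like cells and 1.45 (SE 0.49, edgeR adjusted p = 0.0487) in MyoFB-like cells, and the second call was lost under 5 of the alternatives, with edgeR's adjusted p between 0.0573 and 0.514 there and DESeq2's at 0.0592. Capillary-like endothelium had 5 UMIs in Batch 1 and 3 in Batch 2, and macrophage-like and lymphocyte-like cells had none.

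*Lox* encodes lysyl oxidase, the enzyme that starts the crosslinks of elastin and collagen. Its level was 7.22 in Batch 1 and 26.3 in Batch 2 in MatrixFB-2-like cells, 3.28 and 13.2 in MatrixFB-1-like cells, 2.41 and 5.79 in mesothelial-like cells, and 1.62 and 6.64 in MyoFB-like cells. Batch 2 was higher 3.64-fold in MatrixFB-2-like cells, 4.04-fold in MatrixFB-1-like and 4.09-fold in MyoFB-like cells, and the order of these 3 classes was the same in each mouse. MyoFB-like cells were lower than MatrixFB-1-like cells by a log2 fold change of -1.22 (SE 0.39, edgeR adjusted p = 0.0309), a call lost under 4 alternatives, with the adjusted p at 0.601 without the batch term, 0.0850 with RLE scaling, 0.0552 without called doublets and 0.393 with DESeq2. The step from MatrixFB-1-like to MatrixFB-2-like cells, 1.06 and 0.90 on the log2 scale in the batches, did not pass (log2 fold change 0.98, SE 0.37, edgeR adjusted p = 0.159). Capillary-like endothelium had 0.0127 and 0.119, a log2 fold change of -6.94 (SE 0.52, edgeR adjusted p = 2.32e-13) from MatrixFB-1-like cells, and arterial-like endothelium 0.686 and 0.792, higher than capillary-like by 3.13 (SE 0.57, edgeR adjusted p = 0.000419, and 0.262 without the batch term). Lymphatic-like cells held no *Lox* UMI, which allows up to 0.170 per 10000 over both batches, a limit above the capillary-like level, so no fold is given.

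*Loxl1* encodes the lysyl oxidase-like enzyme that acts mainly on elastin. MatrixFB-2-like cells had 3.88 and 3.15, Smooth-muscle-like cells 1.85 and 2.66, mesothelial-like cells 1.93 and 2.55, Pericyte-1-like cells 1.19 and 2.79, and MatrixFB-1-like cells 2.61 and 1.08. These middle ranges overlapped. Pericyte-2-like cells held 1 and 2 UMIs (0.130 and 0.0624), and Pericyte-1-like cells, with 2 and 46 UMIs, were higher by a log2 fold change of 4.91 (SE 0.82, edgeR adjusted p = 0.000144). Endothelium held next to none, with 4 and 1 UMIs in capillary-like, 1 and 1 in arterial-like and none in lymphatic-like cells, and capillary-like cells were lower than MatrixFB-1-like cells by a log2 fold change of -6.89 (SE 0.64, edgeR adjusted p = 1.99e-11). *Lox* was 1.78 and 1.52 in Pericyte-1-like cells and 0.463, from 1 UMI, and 6.41 in Smooth-muscle-like cells.

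**Figure D2:**
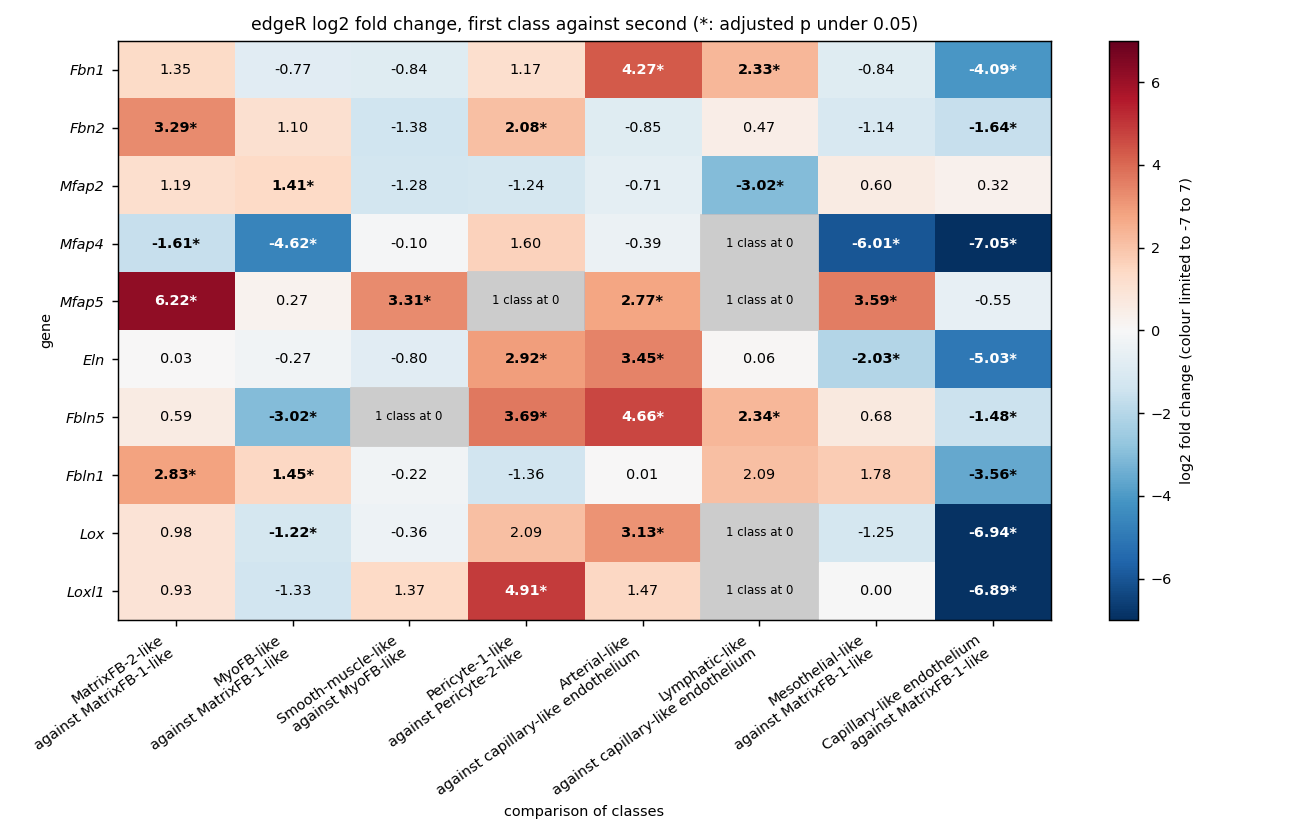
Log2 fold changes of the 10 genes (rows) in 8 comparisons of classes (columns) from edgeR's quasi-likelihood fit, with colour for the fold change, a star where the adjusted p was under 0.05, and grey where a class had no UMI in either batch. Stars fill 8 of 10 rows for capillary-like endothelium against MatrixFB-1-like cells, all of them lower, and 5 of 10 for arterial-like against capillary-like endothelium, all of them higher.

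The 8 comparisons were fitted together on 30 sums of UMIs, 15 classes by 2 batches, with the batch as a term, over 7540 genes that included all 10 elastic fibre genes. The batch term takes out the difference that all classes share between the 2 libraries. The p-values measure how far the 15 classes depart from that shared difference, and with 1 mouse in each batch they do not measure the spread among mice. Of the 80 gene-by-comparison pairs 33 passed, all 33 had the same direction in each batch, and 19 of the 33 passed in every alternative that gave a test. Several comparisons share a class, MatrixFB-1-like, MyoFB-like or capillary-like cells, so they are not independent of each other. In bulk sums of a class, fewer expressing cells and less RNA per expressing cell cannot be told apart.

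Between fibroblast classes, MatrixFB-2-like against MatrixFB-1-like cells had 4 of the 10 genes past the threshold, *Fbn2*, *Fbln1* and *Mfap5* higher and *Mfap4* lower, where 4.23% of all genes tested passed (2.73% higher and 1.50% lower), and 2.72% of the 3016 tested genes that no clustering used. The 10 were left out by name whatever their variability, while most of the 3016 were not chosen as variable. The share over the 3016, here and below, is therefore not a matched one. With RLE scaling 4 of the 10 were higher and none was lower, since *Mfap2* then passed and *Mfap4* did not (edgeR adjusted p = 0.0726). The median log2 fold change of the 10 was 1.08, against -0.13 over all genes tested. Of 24 tested genes for assembly and crosslinking partners, 5 were higher and none was lower (11 had an unadjusted p under 0.05). Among these were *Fbln2*, a fibulin of elastic tissues (0.0159 and 0.0403 to 1.20 and 0.379), *Ltbp2*, a latent TGF-beta binding protein that binds fibrillin, *Loxl2*, another lysyl oxidase, and *Vcan*, a proteoglycan of microfibrils, with log2 fold changes of 4.30 (SE 0.74), 3.59 (SE 0.62), 2.38 (SE 0.44) and 2.52 (SE 0.52). The paper already reports high *Vcan* in its MatrixFB-2 cells, so that difference is no independent finding. Of 7 tested turnover genes 2 were higher, *Mmp14*, a membrane protease (1.46, SE 0.35), and *Timp2*, a protease inhibitor (1.48, SE 0.38).

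For MyoFB-like against MatrixFB-1-like cells 5 of the 10 genes passed, *Fbln1* and *Mfap2* higher and *Fbln5*, *Lox* and *Mfap4* lower, where 11.4% of all genes passed, 5.28% higher and 6.11% lower, and 9.91% of genes not used in clustering. With RLE scaling 58.7% of all genes past were higher, in place of 46.3%, and of the 10 genes 2 were higher and 2 lower, with *Lox* lost. The median of the 10 was -0.52, against -0.03 over all genes. *Loxl1* fell just outside, with a log2 fold change of -1.33 (SE 0.46, edgeR adjusted p = 0.0547). Of the 24 partners 6 were higher and 2 lower. *Loxl2* stood at 10.5 and 10.9 in MyoFB-like cells against 0.690 and 0.447 (log2 fold change 3.98, SE 0.45), and *Ltbp2* at 3.30 and 2.33 against 0.0872 and 0.0626 (4.94, SE 0.56). *Fn1*, fibronectin, on which fibrillin assembles, stood at 0.224 and 0.328 against 10.2 and 7.08 (-4.97, SE 0.51), and *Itga8*, an integrin subunit for fibronectin, was also lower (-6.51, SE 0.83). The study counts *Fn1* among the markers of its MatrixFB-1 cells. Its height in MatrixFB-1-like cells, here and in the later comparisons with them, is therefore no independent finding. Of the 7 turnover genes 1 was higher, *Timp3*, a matrix-bound protease inhibitor (1.18, SE 0.39).

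Smooth-muscle-like against MyoFB-like cells, with 12 and 25 Smooth-muscle-like cells, had 1 of the 10 genes past, *Mfap5*, where 0.438% of all genes passed, 0.186% higher, and 0.166% of genes not used in clustering. The MyoFB-like class includes clusters of 136 and 82 cells that matched the Smooth-muscle-like markers best. It also holds 28 of the 36 cells listed as smooth muscle, so the comparison does not set all smooth muscle against myofibroblasts. With RLE scaling 71.0% of all genes past were higher, in place of 42.4%. The median of the 10 was -0.58, against -0.46 over all genes. No partner and no turnover gene passed in edgeR's test or with DESeq2 (3 of 24 and 1 of 7 had an unadjusted p under 0.05 in edgeR's test). *Mfap2* had 3.70 and 5.31 in Smooth-muscle-like cells, and its log2 fold change of -1.28 (SE 0.45) did not pass (edgeR adjusted p = 0.247).

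Pericyte-1-like against Pericyte-2-like cells had 4 of the 10 genes past, *Eln*, *Fbn2*, *Fbln5* and *Loxl1*, all higher, where 3.05% of all genes passed and 1.35% were higher, with 1.23% of genes not used in clustering. The median of the 10 was 2.08, against -0.15 over all genes. The Smooth-muscle-like markers stood at 45.6 and 38.5 in Pericyte-1-like and 4.94 and 6.56 in Pericyte-2-like cells, with *Hhip* at 0 in 3 of these 4 sums, and their part in the difference was not tested. *Mfap2* went the other way, with 5.33 and 2.85 against 6.77 and 8.30, but did not pass (log2 fold change -1.24, SE 0.45, edgeR adjusted p = 0.155), nor did *Lox* (2.09, SE 0.67, edgeR adjusted p = 0.0824). Of the 24 partners 3 were higher and 2 lower, with *Fn1* at 8.89 and 3.34 against 0.781 and 0.187 (3.63, SE 0.59) and *Ltbp2* at 0.593 and 0.364 against 3.64 and 3.96 (-3.25, SE 0.74). *Timp3* was the 1 turnover gene past, and it was lower (-2.76, SE 0.48).

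In endothelium, arterial-like against capillary-like cells had 5 of the 10 genes past, *Eln*, *Fbn1*, *Fbln5*, *Lox* and *Mfap5*, all higher, where 1.64% of all genes passed and 1.25% were higher, with 0.862% of genes not used in clustering. Their median was 2.12, against -0.08. Of the 24 partners 3 passed, all higher: *Ltbp4*, a latent TGF-beta binding protein that acts with fibulin-5 in elastin assembly (3.20 and 3.35 against 0.253 and 0.273, log2 fold change 3.51, SE 0.43), *Fbln2* (6.52 and 6.97 against 0.937 and 0.338, 3.51, SE 0.50) and *Fn1* (3.02, SE 0.52). No turnover gene passed in edgeR's test or with DESeq2, and none had an unadjusted p under 0.05. Lymphatic-like against capillary-like cells had 3 past, *Fbn1* and *Fbln5* higher and *Mfap2* lower, where 8.82% of all genes passed, 3.87% higher and 4.95% lower, and 6.27% of genes not used in clustering. The 10 had a median of -1.26, against -0.27, but 4 of the 10 had no UMI in lymphatic-like cells and their fitted fold changes are not bounds. Of the 24 partners 2 were higher, *Fn1* (3.61, SE 0.58) and *Ltbp4* (2.60, SE 0.50), and of the 7 turnover genes *Timp2* (2.61, SE 0.40) and *Mmp14* (2.23, SE 0.37).

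Mesothelial-like against MatrixFB-1-like cells had 3 of the 10 genes past, *Mfap5* higher and *Eln* and *Mfap4* lower, where 11.4% of all genes passed, 5.6% higher and 5.76% lower, and 10.7% of genes not used in clustering. With RLE scaling 75.6% of all genes past were higher, in place of 49.3%, and of the 10 genes 2 were higher, *Fbln1* and *Mfap5*, and 1 lower, with *Eln* lost. The 10 genes had a median of -0.42, against -0.47 over all genes. The mesothelial-like sums also held 6 and 7 of the 10 MatrixFB-2-like markers, at 110 and 149 per 10000 together, above the 71.0 and 44.6 of MatrixFB-2-like cells, with *Dpt*, *Agtr2* and *Pi16* at 0 in each, and their part in the *Mfap5* difference was not tested. Of the 24 partners 5 were higher and 4 lower. *Fbln2* (8.93 and 8.11 against 0.0159 and 0.0403, log2 fold change 7.57, SE 0.67) and *Ltbp1* (3.26, SE 0.51) were higher and *Fn1* (0 and 0.695 against 10.2 and 7.08, -4.96, SE 0.70) was lower. *Efemp1*, fibulin-3, stood at 2.90 and 2.32 in mesothelial-like cells and at 0.0159 and 0.0045 in MatrixFB-1-like cells. Of the 7 turnover genes *Timp1* and *Timp2*, both protease inhibitors, were higher (3.52, SE 0.73, and 2.43, SE 0.41), and the protease *Mmp2*, at 2.33 and 1.32 in MatrixFB-1-like cells, had no UMI in mesothelial-like cells.

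The widest contrast was capillary-like endothelium against MatrixFB-1-like cells, in which 8 of the 10 genes passed, all lower, where 26.8% of all genes passed and 14.4% were lower, with 23.3% of genes not used in clustering. Outside the 8 were *Mfap2* (log2 fold change 0.32, SE 0.38, edgeR adjusted p = 0.615), with opposite signs in the batches (-0.29 and 0.90), and *Mfap5* (-0.55, SE 0.55, edgeR adjusted p = 0.534), which is near 0 in both classes. The median of the 10 was -3.82, against -0.15 over all genes. *Eln* was lower by a log2 fold change of -5.03 (SE 0.55, edgeR adjusted p = 7.53e-10), *Fbn1* by -4.09 (SE 0.51, edgeR adjusted p = 1.82e-08) and *Fbln1* by -3.56 (SE 0.62, edgeR adjusted p = 1.46e-05). *Fbn2*, at -1.64 (SE 0.49), and *Fbln5*, at -1.48 (SE 0.44), were the least lower (edgeR adjusted p = 0.00941 and 0.00833), and the first call was lost at a mitochondrial limit of 5% (0.0652) and the second without the batch term (0.0666) and with DESeq2 (0.0557). By the authors' cell list *Fbln5* was higher in vascular endothelium, which there includes arterial cells, than in MatrixFB-1 cells by 0.36 on the log2 scale, in 1 library and with no test. Of the 24 partners 12 were lower and 1 higher, with *Fn1* (-6.36, SE 0.51), *Bgn*, a small proteoglycan (-4.89, SE 0.46), *Itga8* (-7.42, SE 0.69) and *Adamtsl2*, a protein that binds fibrillin (-5.83, SE 0.66), among the former. Of the turnover genes *Mmp2* was lower (-4.46, SE 0.48) and *Timp3* higher (1.40, SE 0.38).

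**Figure D3:**
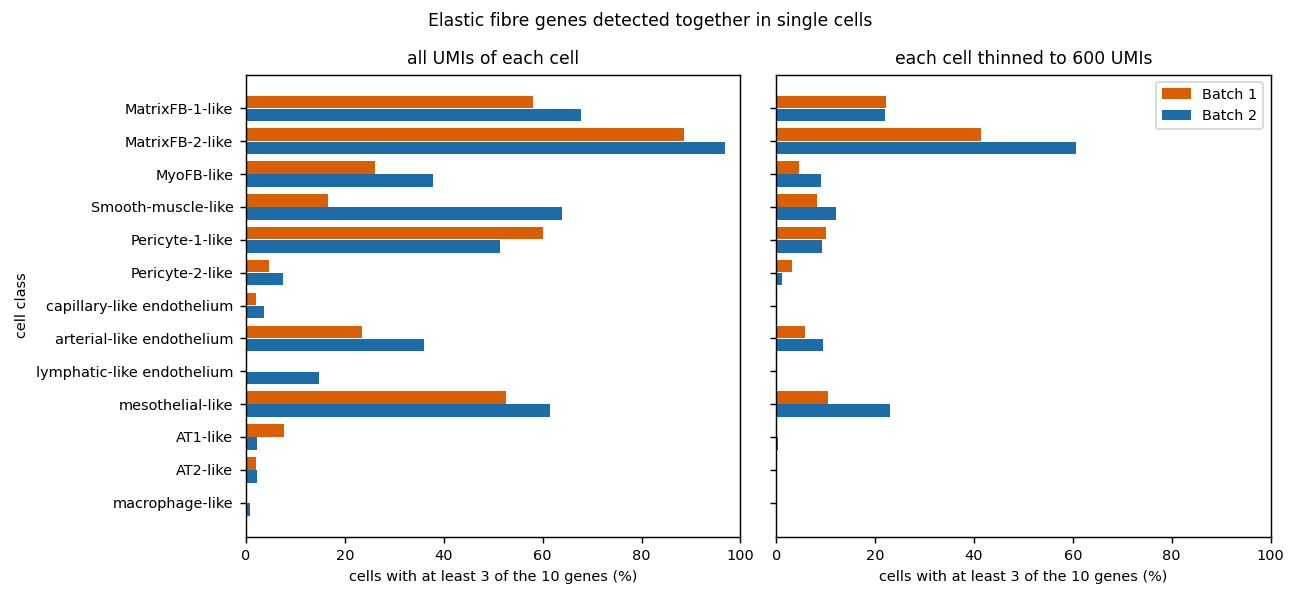
Share of cells (percent, horizontal axis starting at 0) with UMIs of at least 3 of the 10 genes in each class and batch, at full depth and with every cell thinned to 600 UMIs. MatrixFB-2-like cells are highest at 88.6% and 97.0%, and macrophage-like cells are at 0% and 0.855%.

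How many of the 10 genes were found in the same cell also ordered the classes. At least 3 were found in 88.6% of MatrixFB-2-like cells in Batch 1 and 97.0% in Batch 2, in 58.1% and 67.7% of MatrixFB-1-like cells, and in 26.2% and 37.8% of MyoFB-like cells. Median depth was 1993 and 2279 UMIs in the first, 1294 and 1692 in the second and 1076 and 1396.5 in the third, and thinned to 600 UMIs the shares were 41.4% and 60.6%, 22.3% and 22%, and 4.70% and 9.07%. The order of these 3 classes held at equal depth. At full depth Pericyte-1-like cells reached 60% and 51.3%, mesothelial-like cells 52.6% and 61.5%, and arterial-like endothelium 23.5% and 35.9%, whereas Pericyte-2-like cells stayed at 4.69% and 7.45% and capillary-like endothelium at 2.05% and 3.58%. At 600 UMIs a cell Pericyte-1-like cells had 10.0% and 9.21%, mesothelial-like cells 10.5% and 23.1%, and arterial-like endothelium 5.88% and 9.40%. Pericyte-2-like cells then had 3.1% and 1.24%, and capillary-like endothelium 0.227% and 0.0873%. Summed, the 10 genes made up 62.0 and 44.8 of 10000 UMIs in MatrixFB-1-like cells, 56.0 and 72.1 in MatrixFB-2-like cells, 23.4 and 26.3 in MyoFB-like cells, and 1.50 and 1.06 in macrophage-like cells. *Mfap4* alone gave 43.4 and 19.2 of the MatrixFB-1-like sums. By the sum of the 10 genes the order of both matrix fibroblast classes was opposite in the mice.

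**Figure D4:**
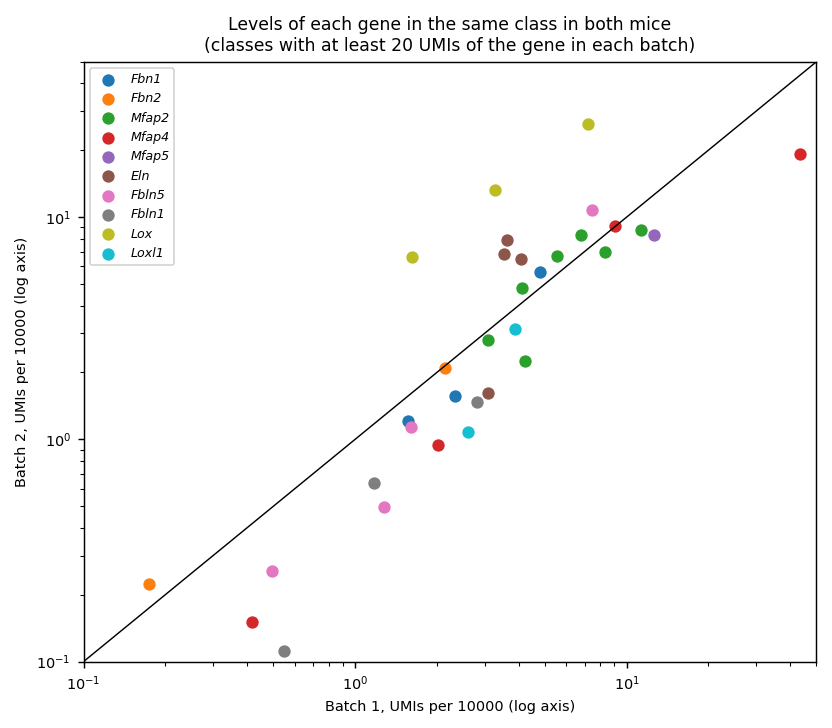
Level of each gene in Batch 2 (vertical axis) against Batch 1 (horizontal axis), UMIs per 10000 on log axes, 1 point for each gene and class with at least 20 UMIs in each batch, and a diagonal for equal levels. *Lox* lies above the diagonal in its 3 classes (3.64-fold to 4.09-fold), and *Mfap4*, *Loxl1* and *Fbln1* in MatrixFB-1-like cells lie below it.

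The mice differed in the levels of several of the 10 genes, as the plot of levels in both batches shows. In MatrixFB-1-like cells the level in Batch 2 over that in Batch 1 was 4.04 for *Lox* and 1.58 for *Eln*, but 0.441 for *Mfap4*, 0.415 for *Loxl1*, 0.389 for *Fbln5* and 0.204 for *Fbln1*. Over 3473 genes with at least 50 UMIs in each batch in these cells the median ratio was 0.979, the 5th percentile 0.466 and the 95th percentile 2.06. With 1 mouse in each batch, the mouse, its dissociation and its library cannot be told apart.

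Over the 30 sums, and with depth and class size shared by every gene of a sum, the gene most like *Eln* was *Mgp*, matrix Gla protein (Pearson r of log2 CPM 0.90 among 6219 genes), followed by *Gpx7* (0.87). *Mgp* also led for *Lox* (0.82), with *Smoc2* next (0.80). *Loxl1* was closest to *Ptgis* (0.91) and *Col1a1* (0.89), *Fbln1* to *Zfp9* (0.92) and *Col3a1* (0.87), and *Mfap2* to *Cd81* (0.90) and *Fkbp7* (0.89). For *Mfap4* the leading genes were *Gsn* (0.84) and *Tcf21* (0.83), the latter a transcription factor of lung fibroblasts that served as a MatrixFB-1-like marker, for *Mfap5* *Adamts5* (0.82) and *Igfbp5* (0.81), a MatrixFB-2-like marker, and for *Fbn2* *Prrx1* (0.85) and *Lama2* (0.80). *Fbn1* was closest to *Golim4* (0.82) and *Fkbp9* (0.79), and *Fbln5* had the weakest likeness, with *Atp13a3* (0.77) and *Cyb5r3* (0.70). Among the 10 themselves the closest pairs were *Eln* with *Loxl1* (0.83), *Lox* with *Loxl1* (0.79) and *Eln* with *Lox* (0.78), and the lowest was *Fbln5* with *Mfap4* (-0.21).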

How the data were processed

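Lung cells of 2 newborn mice, 1 mouse per batch, were profiled by Drop-seq. The authors deposited UMI counts per gene and cell without normalization, made from reads aligned to mm10 with Bowtie2 2.2.7 and counted over exons with the Drop-seq tools, in cells with at least 500 genes. Of 2389 and 7555 deposited cells, 1 and 1940 exceeded the mitochondrial limit of 10% and were left out. The members and gene lists were chosen with earlier results of these data known.

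Cells were clustered in Python 3.11.15 with numpy 2.4.6, scikit-learn 1.9.0 and leidenalg 0.10.2 (2000 variable genes, 40 components, 20 neighbours, resolution 1.0), leaving out the 10 genes and the genes of both lists, and clusters were named from marker genes. Blood endothelial, MatrixFB-1-like, MyoFB-like with Smooth-muscle-like, pericyte and mesothelial-like groups were each clustered again, with fewer components. The resolution was lower for the MatrixFB-1-like group. By a rule chosen after the clusters were seen, 3 cells of Batch 2 with many UMIs of cardiac muscle genes left the Smooth-muscle-like class. In all, 1074 cells stayed unnamed. Since the other genes of the same cells made the clusters, tests are reported by name only for genes kept out of the clustering. Of the 7540 genes fitted, 3016 were used in no clustering. Apart from genes left out by rule, such as the 10, these were not among the variable genes chosen. The adjustment of p-values and the shares over all genes cover all 7540. Doublets called with Scrublet in scanpy 1.11.5, 13 and 118 cells, were kept. Levels have exact Poisson and detection Wilson 95% intervals.

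Counts summed over the cells of each class and batch, for the 15 classes with at least 10 cells in each batch, ranged from 16870 to 3519766 UMIs. They were fitted in R 4.3.3 with edgeR 4.0.16 (filterByExpr, TMM, quasi-likelihood test, class and batch as terms), and p-values were adjusted by Benjamini-Hochberg over 7540 genes, with a threshold of 0.05. The SE is the log2 fold change over the square root of F. Sums of 1 batch come from the same mouse, which pairs them, and their deviations from the class means correlated with a median of 0.15 (0.03 to 0.51 over 105 pairs of classes). For differences in a single batch, log2 CPM was taken at a prior count of 2. All 10 genes are named, with up to 4 genes of each list with the lowest adjusted p and the 2 genes most like each of the 10. Alternatives were no batch term, RLE scaling, no filter on low counts, a mitochondrial limit of 5%, no called doublets, only the classes compared, DESeq2 1.42.0, each batch alone and the authors' cell list, a part of which was used.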

Additional observations from a re-analysis of the deposited data

Results flagged for a closer look

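Left out of every comparison were the 1940 cells of Batch 2 in which mitochondrial genes held more than 10% of UMIs. All 10 genes were found among their 5030373 UMIs, above the limit of 0.006 per 10000 that a count of 0 would allow there. The level was 2.84 UMIs per 10000 for *Lox*, 2.26 for *Mfap4*, 1.49 for *Mfap2*, 1.17 for *Eln* and 1.04 for *Fbln5*. It was 0.622 for *Fbn1*, 0.26 for *Fbn2*, 0.203 for *Loxl1*, 0.167 for *Mfap5* and 0.0576 for *Fbln1*. These cells carry no class here, so the values belong to a mixture of all cell types.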

How the results depend on the processing

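Without the replicate block, the batch term, the number of the 10 genes past the threshold went from 4 to 2 for MatrixFB-2-like and from 5 to 2 for MyoFB-like against MatrixFB-1-like cells, from 1 to 0 for Smooth-muscle-like against MyoFB-like cells (unadjusted p under 0.05 in edgeR's test for 2 genes) and from 5 to 3 for arterial-like against capillary-like endothelium. Genes past over the whole table fell at the same time from 319 to 106, from 859 to 447, from 33 to 5, from 124 to 56, from 230 to 105 for the pericytes and from 665 to 372 for lymphatic-like endothelium. Fitting only the 2 classes compared gave 8 of the 10 genes for both MatrixFB-2-like and MyoFB-like against MatrixFB-1-like cells, and over all genes 765 and 1754 for these, 101 for Smooth-muscle-like cells, 337 for arterial-like endothelium and 3566 in place of 2023 for capillary-like endothelium against MatrixFB-1-like cells. At a mitochondrial limit of 5% the count was 2 for the pericytes in place of 4 and 0 for Smooth-muscle-like cells (3 with an unadjusted p under 0.05), with 103 genes overall for the pericytes and 80 for arterial-like endothelium. Without called doublets it was 3 for MyoFB-like cells and 0 for Smooth-muscle-like cells (3 with an unadjusted p under 0.05), with 18 genes overall in the latter. With DESeq2 it was 3 for MyoFB-like and 0 for Smooth-muscle-like cells, the latter with an unadjusted p under 0.05 for 3 genes, no adjusted p for *Mfap5*, and 102 genes overall in Smooth-muscle-like cells. Without the filter on low counts Smooth-muscle-like cells had 70 and arterial-like endothelium 189 genes past. RLE scaling moved the median log2 fold change of all genes from -0.03 to 0.19 for MyoFB-like, from -0.46 to -0.25 for Smooth-muscle-like, from -0.47 to 0.04 for mesothelial-like and from -0.15 to 0.03 for capillary-like cells, and genes past were then 552 higher and 389 lower, 22 and 9, and 573 and 185 in the first 3, in place of 398 and 461, 14 and 19, and 422 and 434. The sign of *Fbln5* turned by the authors' cell list, to -0.73 for lymphatic against vascular and 0.36 for vascular endothelium against MatrixFB-1 cells. The cause was not tested for any of these changes. The class with the highest level stayed for 10 of the 10 genes at a mitochondrial limit of 5%, without called doublets and in Batch 2 alone, for 9 in Batch 1 alone, for 8 by the authors' list or by detection, and for 7 by detection at 600 UMIs. Leaving out the neutrophil-like sums, an alternative chosen after seeing the data because their 11 Batch 1 cells carried fibroblast transcripts, moved no count of the 10 genes by over 1.5 times. Levels by class without a mitochondrial limit were not run, since the cells left out have no class, and the authors' list gives no arterial or mesothelial group. Depth limits the small classes: the 10 Pericyte-1-like cells of Batch 1 hold 16870 UMIs.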

Other observations

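Within the classes some clusters stood apart in these genes, chosen here after their values were seen. An unnamed endothelial cluster of 21 cells in Batch 1 and 54 in Batch 2, led by *Car8*, *Fbln2* and *Ackr3* and holding *Vwf*, had *Fbln5* at 10.1 and 7.25 UMIs per 10000, with *Mfap5* at 1.48 and 3.37 and *Eln* at 1.98 and 2.47. A Pericyte-2-like cluster of 9 and 15 cells led by *Ebf1* and *Fabp7* had *Eln* at 3.59 and 4.17, and held 4 of the 4 and 17 of the 27 *Eln* UMIs of the Pericyte-2-like class. In the capillary-like cluster led by *Car4* and *Ednrb*, 42 and 150 cells, *Mfap2* stood at 6.00 and 6.55. In the unnamed clusters together lay 25.5% of all *Fbln5* UMIs of Batch 1 and 42.2% of those of Batch 2.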
